A study of Mus musculus with 10 samples.

Results

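*Fabp7*, *Cdh19*, *Ngfr*, *S100b* and *Gfap* are genes used to recognise Schwann cell precursors and the glia that follow them, and the values described here are their transcript levels in neural crest progenitors (NCPs) of the mouse lower urogenital tract and in total embryo. The 5 genes were taken by symbol, and each had 1 probe set annotated to that gene alone among the 19937 genes with a probe set of their own. The NCPs carried the transgene Tg(*Sox10*-HIST2H2BE/Venus)ASout, in which *Sox10* regulatory sequence drives a nuclear histone-Venus fusion, and Venus+ cells were sorted from bladder, urethra, pelvic ganglia and nearby vessels at embryonic day 13. Their 3 arrays hold RNA of pooled fetuses. The 7 control arrays hold total embryo RNA, for which the labels give neither stage nor genotype. *Sox10* marks crest progenitors and glia. Per the paper, residual Venus fluorescence also persists briefly in young neurons, so the sort is not a purified glial population. All 10 arrays are Affymetrix mouse Gene 1.0 ST arrays, and values are on a log2 scale as normalized by the authors.

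Schwann cell precursors are crest cells that travel along growing nerves, depend on neuregulin from axons, and give rise to Schwann cells and to further derivatives that include autonomic neurons, melanocytes and endoneurial fibroblasts. In the peripheral lineage *Fabp7* and *Cdh19* are known as genes of the precursor stage, *Ngfr* runs through crest, precursors and immature Schwann cells, *S100b* comes on as Schwann cells form, and *Gfap* follows late in non-myelinating Schwann, satellite and enteric glia. Several of them also belong to the central nervous system, where *Fabp7* is abundant in radial glia and *Gfap* defines astrocytes. The sort was taken from the tissues named above, and the total embryo RNA is of unstated stage. The part of central nervous tissue in the values below was not tested.

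The sequences upstream of 2 of these genes are shown because *Fabp7* had the largest decrease of the 5 and *Gfap* an increase carried mainly by 1 NCP array. Each is the 250 bases before the annotated start from RefSeq (GRCm38.p6), printed 5′ to 3′ on the strand of the gene, at chr10:57784673-57784922 (plus strand) for *Fabp7* and chr11:102897201-102897450 (minus strand) for *Gfap*. Capitals mark ATTGG, which is CCAAT, a common promoter element, read on the opposite strand.
Fabp7 upstream: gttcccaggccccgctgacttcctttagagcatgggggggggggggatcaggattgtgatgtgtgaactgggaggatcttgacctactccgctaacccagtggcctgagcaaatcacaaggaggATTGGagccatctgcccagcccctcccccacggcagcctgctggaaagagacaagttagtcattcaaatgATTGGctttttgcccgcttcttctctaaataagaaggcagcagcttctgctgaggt
Gfap upstream: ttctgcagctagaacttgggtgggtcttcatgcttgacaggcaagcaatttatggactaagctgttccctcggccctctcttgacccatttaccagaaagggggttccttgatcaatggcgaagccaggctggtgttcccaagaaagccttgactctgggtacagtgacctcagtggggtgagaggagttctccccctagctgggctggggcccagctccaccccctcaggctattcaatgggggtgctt
CCAAT on either strand was found 2 times before *Fabp7*, at 126 to 122 and at 56 to 52 bases before the start. It was also found 2 times before *S100b*, and 0 times before *Gfap* and *Ngfr*. Of 32851 promoter windows of the same length, 33.8% hold it. The letters ACAAAG and AACAAT (cores bound by SOX proteins, in 16.5% and 9.42% of windows), TATAAA (the TATA box, 12.4%), ATTTGCAT (the octamer of POU factors, 1.6%) and GCCNNNGGC (the core of AP-2 factors, 13.7%) were searched on both strands and had 0 matches before these 4 genes. A match is a description of letters and does not show a bound factor, and 0 matches concern these windows alone. *Cdh19* was not among the promoter entries.

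The 2 groups of arrays differed in more than cell type. Over 28192 probe sets tested, the standard deviation (SD) was 0.97 to 1.13 on the NCP arrays and 1.78 to 1.91 on the total embryo arrays. The correlation between arrays was 0.58 to 0.68 among NCPs and 0.95 to 0.99 among total embryos. As a measured floor, 1190 olfactory and vomeronasal receptor genes were used, since few tissues outside the nose express them. Housekeeping genes exceeded that floor by 3.27, 0.61 and 4.31 (difference of medians) for NCP replicates 1, 2 and 3 in turn, and for total embryo by 6.78 to 7.26, so NCP replicate 2 stands apart. Genes dim in total embryo were higher in NCPs and bright genes lower. In 10 groups of genes by total embryo level, the median log2 fold change ran from 1.86 in the dimmest group to −2.24 in the brightest, and over all probe sets it was 0.23. Each change below is therefore set beside the 500 genes nearest in total embryo level (the local median), and after level adjustment, which subtracts the trend of each array on that level. The total embryo arrays carry 2 codes in their titles, one on 3 arrays and the other on 4, and may be repeats of 2 RNA samples. The p-values measure the spread between these arrays, which may be technical, and their number limits the precision.

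Of the 5 genes, *Cdh19* and *Gfap* were higher in NCPs (39.6% of all probe sets were called higher), *Fabp7* was lower (27.5% were called lower), and *Ngfr* and *S100b* did not pass an adjusted p of 0.05. The changes ran from a log2 fold change of −4.39 (*Fabp7*) to 2.30 (*Cdh19*), with a median of 0.43. NCP arrays lay above every total embryo array for 2 of the 5 (31.8% of all probe sets did so) and below every one for 1 (21.5%). After level adjustment 0 were higher (10.3% of all probe sets) and 1 was lower (8.29%), which was *Fabp7*. Cyclic loess, another way of removing a trend on level, also left 0 higher (16.9%) and 1 lower (16%), and at an unadjusted p of 0.05 in limma both fits again gave 0 higher and 1 lower. Without NCP replicate 2 the calls were again 2 higher (39.4%) and 1 lower (26.3%). With so large a share of all probe sets called, the number of calls among the 5 genes does not set them apart. In RNA of mixed cells, fewer cells of a type and less RNA per cell cannot be told apart.

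**Figure D1:**
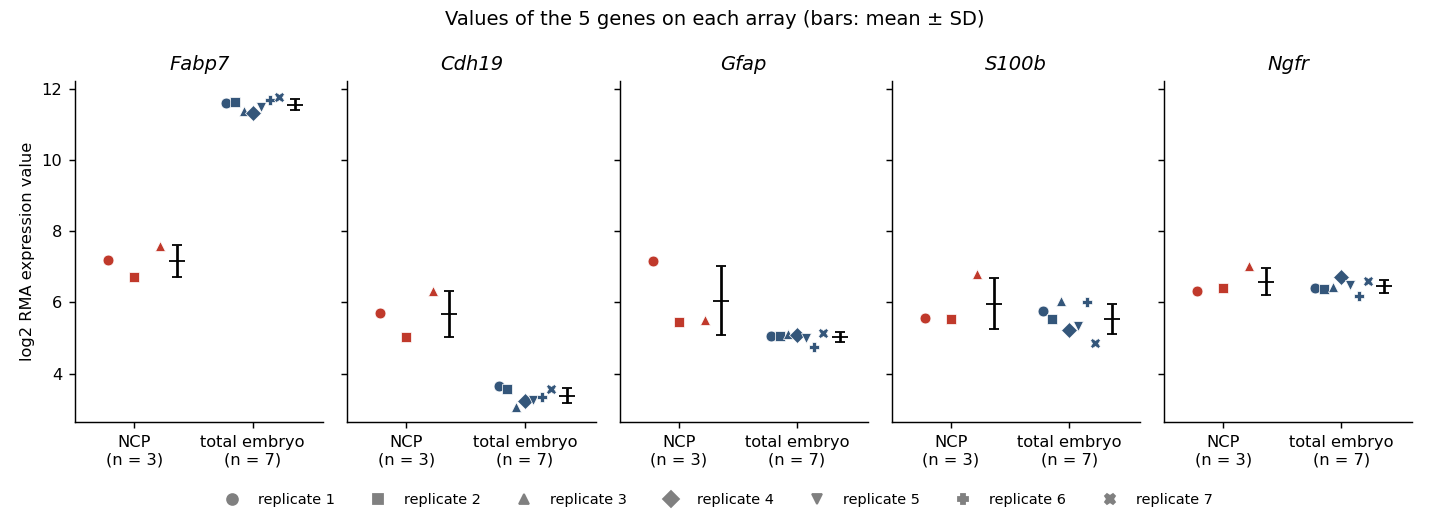
Log2 values of the 5 genes (vertical axis) on the 3 NCP and 7 total embryo arrays, 1 point per array with its replicate number as the symbol, and the mean ± SD as bars. *Fabp7* lies between 6.71 and 7.59 in NCPs and between 11.33 and 11.78 in total embryo, *Cdh19* and *Gfap* lie above total embryo on all 3 NCP arrays, and *S100b* and *Ngfr* overlap.

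*Fabp7* encodes a brain-type fatty acid binding protein that carries long-chain polyunsaturated fatty acids in the cytoplasm of radial glia and Schwann cell precursors. Its level was 7.19, 6.71 and 7.59 on NCP arrays 1, 2 and 3, and in total embryo it ran from 11.33 to 11.78 with a median of 11.61. Every NCP value was thus more than 3 log2 units under the lowest total embryo value, and replicate 2 was the lowest. The NCP mean was 7.16 ± 0.44 (SD, n = 3 arrays), against a total embryo mean of 11.55 ± 0.16 (SD, n = 7 arrays). The log2 fold change was −4.39 (standard error 0.20, 95% interval −4.81 to −3.97, limma, Benjamini-Hochberg adjusted p = 8.04e-09), a 21.0-fold lower value on the deposited scale. As NCP replicate 2 lay under the 95th percentile of receptor genes, this fold is not read as a ratio of transcript amounts. *Fabp7* was one of the brightest genes in total embryo, so that 186 genes, in place of 500, could be placed evenly around it. Those genes fell too, with a median of −2.02, and the difference of *Fabp7* from that median was −2.37, at percentile 19.4 among them. By array the difference was −2.63, −1.85 and −2.61 on NCP arrays 1, 2 and 3, the same direction on each. *Fabp7* passed the threshold and fell under all 28 alternative settings, with values from −6.08 to −1.74. The smallest decrease was the one after level adjustment (adjusted p = 0.00132 from limma), and cyclic loess gave −2.39 (adjusted p = 1.11e-05 from limma).

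*Fabp7* was nevertheless the gene of the 5 that stood highest on the NCP arrays relative to the receptor floor. It lay at percentiles 98.1, 92.4 and 99.7 of the receptor genes on NCP arrays 1, 2 and 3, and at percentile 100 on every total embryo array. On NCP arrays 1 and 3 it was thus above the 95th percentile of the floor, and on replicate 2 it was not.

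*Cdh19* encodes a type II cadherin known from Schwann cell precursors and later from myelinating and non-myelinating nerve. Its level was 5.70, 5.02 and 6.32 on NCP arrays 1, 2 and 3, and 3.07 to 3.64 with a median of 3.35 in total embryo. Every NCP value exceeded the highest total embryo value, with replicate 3 the highest and replicate 2 the lowest. The mean was 5.68 ± 0.65 (SD, n = 3 arrays) against 3.38 ± 0.21 (SD, n = 7 arrays). The log2 fold change was 2.30 (standard error 0.24, 95% interval 1.77 to 2.83, limma, Benjamini-Hochberg adjusted p = 4.17e-06), between levels that both lay within the range of receptor genes, and no fold is drawn from it. It was among the dimmest genes in total embryo, where genes of like level had a local median of 1.91. *Cdh19* exceeded that median by 0.39, at percentile 78.8, and the excess was 0.46, −0.45 and 1.10 on NCP arrays 1, 2 and 3. After level adjustment its log2 fold change was 0.32 (adjusted p = 0.437 from limma), and after cyclic loess 0.49 (adjusted p = 0.174 from limma), neither past the threshold. Without NCP replicate 2, the array that stands apart, both fits called it higher, at 0.73 (adjusted p = 0.0217) after level adjustment and 0.92 (adjusted p = 0.00496) after cyclic loess. This setting was chosen after seeing the data, and it leaves out the array with the lowest *Cdh19* value. The call therefore rests on NCP replicates 1 and 3 and is not read as a restored result.

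Against the receptor genes *Cdh19* did not stand above the floor on any array. Its percentile among them was 63.0, 21.7 and 88.3 on NCP arrays 1, 2 and 3 and 19.1 to 40.3 in total embryo. With arrays centred on those genes its log2 fold change was 0.61 (adjusted p = 0.0510 from limma). The title codes of total embryo also differed for this gene, at 3.59 ± 0.05 (SD, n = 3 arrays) and 3.23 ± 0.11 (SD, n = 4 arrays) without overlap, and the 3 NCP arrays lay above both. Against the single total embryo array whose title shares the NCP date code, the log2 fold change was 2.03 (adjusted p = 0.102 from limma).

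**Figure D2:**
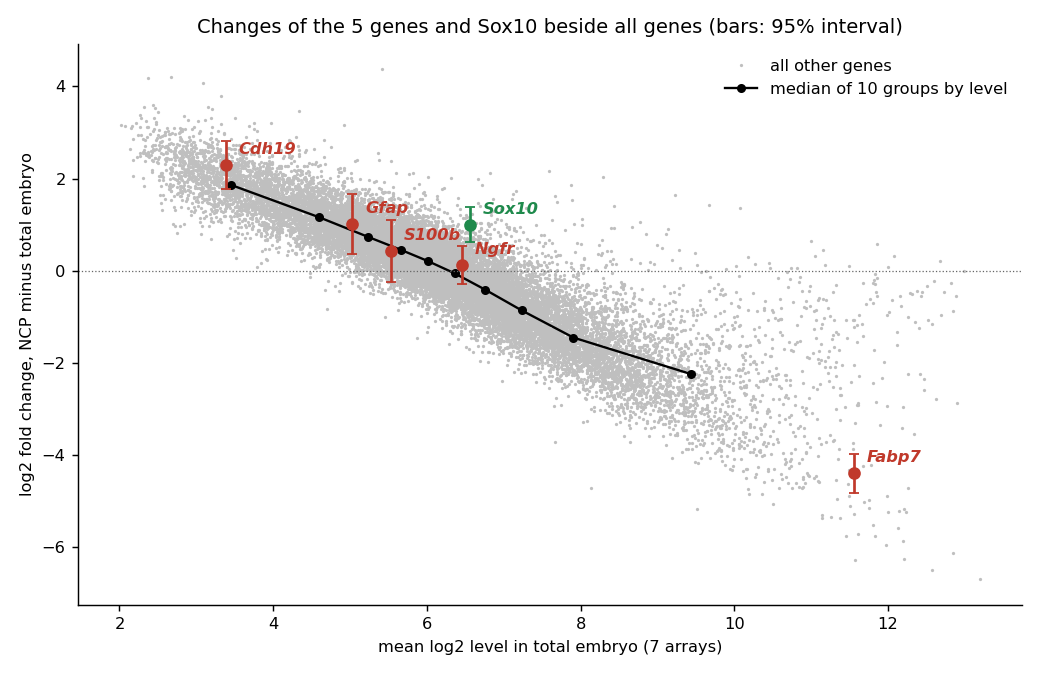
Log2 fold change, NCP minus total embryo (vertical axis), against the mean level of total embryo on the log2 scale (horizontal axis) for all genes in grey, the 5 genes in red and *Sox10* in green, with 95% intervals. The black line joins medians of 10 groups by level, from 1.86 to −2.24. *Cdh19*, *Gfap*, *S100b* and *Ngfr* lie within 0.39 of the median of genes of like level, and the difference of *Fabp7* from it is −2.37. Genes of like level spread more widely for *Fabp7* (5th to 95th percentile −5.68 to −0.014) than for *Cdh19* (1.18 to 2.70). Among them *Fabp7* stood at percentile 19.4, *Cdh19* at 78.8, *Ngfr* at 72.4, *Gfap* at 58.2 and *S100b* at 38. The differences are therefore not on a common scale.

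*Ngfr* encodes the low-affinity neurotrophin receptor p75, a surface marker by which crest cells and Schwann cell precursors are sorted, and one also made by many neurons. Its level was 6.32, 6.41 and 7.03 on NCP arrays 1, 2 and 3, and 6.17 to 6.72 with a median of 6.42 in total embryo. Replicates 1 and 2 fell inside the total embryo range and replicate 3 above it, so the groups overlap. The means were 6.58 ± 0.38 (SD, n = 3 arrays) and 6.45 ± 0.17 (SD, n = 7 arrays), and the log2 fold change was 0.13 (standard error 0.19, 95% interval −0.28 to 0.54, adjusted p = 0.550 from limma). The interval holds both directions on the deposited scale, and the sign turned without NCP replicate 3 (−0.089). Genes of like total embryo level had a median of −0.11, and *Ngfr* was 0.24 above it, at percentile 72.4. By array this difference was −0.048, 0.077 and 0.68. Its percentile among receptor genes was 88.2, 83.7 and 97.9 in NCPs and 99.0 to 99.9 in total embryo. Centring the arrays on receptor genes lowers every log2 fold change by the same amount, and gave −1.56 for *Ngfr* (adjusted p = 9.54e-06 from limma), a sign set by that shift.

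*S100b* encodes a calcium-binding protein used as a marker of Schwann cells, satellite glia and astrocytes. Its level was 5.57, 5.53 and 6.80 on NCP arrays 1, 2 and 3, and 4.86 to 6.03 with a median of 5.54 in total embryo. Replicates 1 and 2 sat at the middle of the total embryo range and replicate 3 above all 7 arrays. The means were 5.97 ± 0.72 (SD, n = 3 arrays) and 5.54 ± 0.43 (SD, n = 7 arrays), the widest total embryo spread of the 5 genes. The log2 fold change was 0.43 (standard error 0.31, 95% interval −0.25 to 1.11, adjusted p = 0.241 from limma), and without NCP replicate 3 it was 0.013. Against genes of like level (median 0.56) it was lower by 0.13, at percentile 38, with −0.51, −0.61 and 0.72 on NCP arrays 1, 2 and 3. Its sign turned after cyclic loess (−0.13) and level adjustment (−0.12), both short of the threshold, and, through the shift common to all genes, with arrays centred on receptor genes (−1.26, adjusted p = 0.00367 from limma). *S100b* lay at percentiles 56.7, 43.7 and 96.7 of receptor genes in NCPs and 85.5 to 98.8 in total embryo.

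*Gfap* encodes the intermediate filament of astrocytes and of non-myelinating peripheral glia. Its level was 7.17, 5.46 and 5.52 on NCP arrays 1, 2 and 3, and 4.75 to 5.14 with a median of 5.07 in total embryo. All 3 NCP arrays lay above total embryo, replicate 1 at 2.14 above the total embryo mean and replicates 2 and 3 at 0.43 and 0.49 above it. The mean was 6.05 ± 0.97 (SD, n = 3 arrays), the widest NCP spread of the 5 genes, against 5.03 ± 0.13 (SD, n = 7 arrays). The log2 fold change of *Gfap* was 1.02 (standard error 0.30, 95% interval 0.36 to 1.67, limma, Benjamini-Hochberg adjusted p = 0.00994). Its values lay under the 95th percentile of receptor genes on all arrays but NCP array 1, and no fold is drawn from it. Without NCP replicate 1 the log2 fold change was 0.46, still past the threshold. Genes of like level had a median of 0.92, so *Gfap* exceeded it by 0.095, at percentile 58.2, with 1.20, −0.59 and −0.35 on NCP arrays 1, 2 and 3.

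The call on *Gfap* was lost after level adjustment (0.13, adjusted p = 0.809 from limma), after cyclic loess (0.19, adjusted p = 0.656) and with arrays averaged per title code (1.01, adjusted p = 0.190), and its sign turned with the shift of arrays centred on receptor genes (−0.67, adjusted p = 0.0585). On NCP array 1 *Gfap* lay at percentile 97.7 of receptor genes, above the 95th, while on arrays 2 and 3 it lay at 40.5 and 54.8, and in total embryo at 86.0 to 91.2. A level above the receptor floor was thus measured on 1 of 10 arrays.

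**Figure D3:**
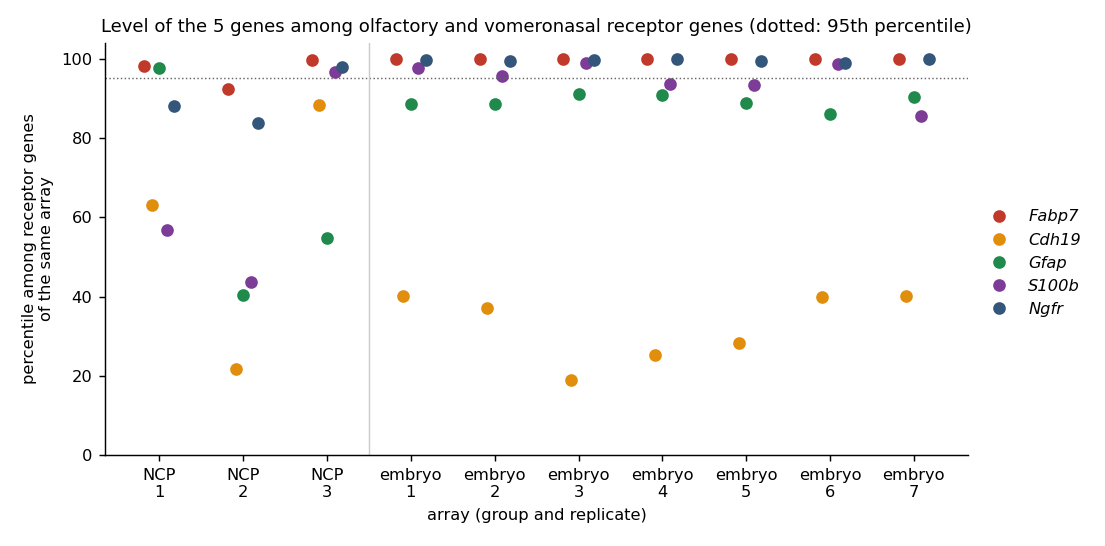
Percentile of each of the 5 genes among 1190 olfactory and vomeronasal receptor genes of the same array (vertical axis) on the 3 NCP and 7 total embryo arrays (horizontal axis), with the 95th percentile dotted. *Fabp7* is at 100 on every total embryo array and at 92.4 to 99.7 on NCP arrays, and *Cdh19* stays under the dotted line on all 10.

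The NCP arrays did not order the 5 genes alike. Replicate 3 had the highest value of *Fabp7*, *Cdh19*, *Ngfr* and *S100b*, and replicate 1 the highest of *Gfap*. Replicate 2 was lowest of the 3 for *Fabp7*, *Cdh19*, *S100b* and *Gfap*, and *Ngfr* was lowest on replicate 1. Replicate 3 also had the widest spread of values (SD 1.13) and the highest housekeeping level over the floor (4.31), and replicate 2 the narrowest (SD 0.97) and lowest (0.61). The part of these array properties in the order was not tested. Compared by probe set value, the mean order in total embryo was *Fabp7*, *Ngfr*, *S100b*, *Gfap* and *Cdh19*, and in NCPs *Fabp7*, *Ngfr*, *Gfap*, *S100b* and *Cdh19*. Probe sets differ in affinity, so neither order ranks transcript amounts, and the last 3 in NCPs differ by less than their SDs.

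**Figure D4:**
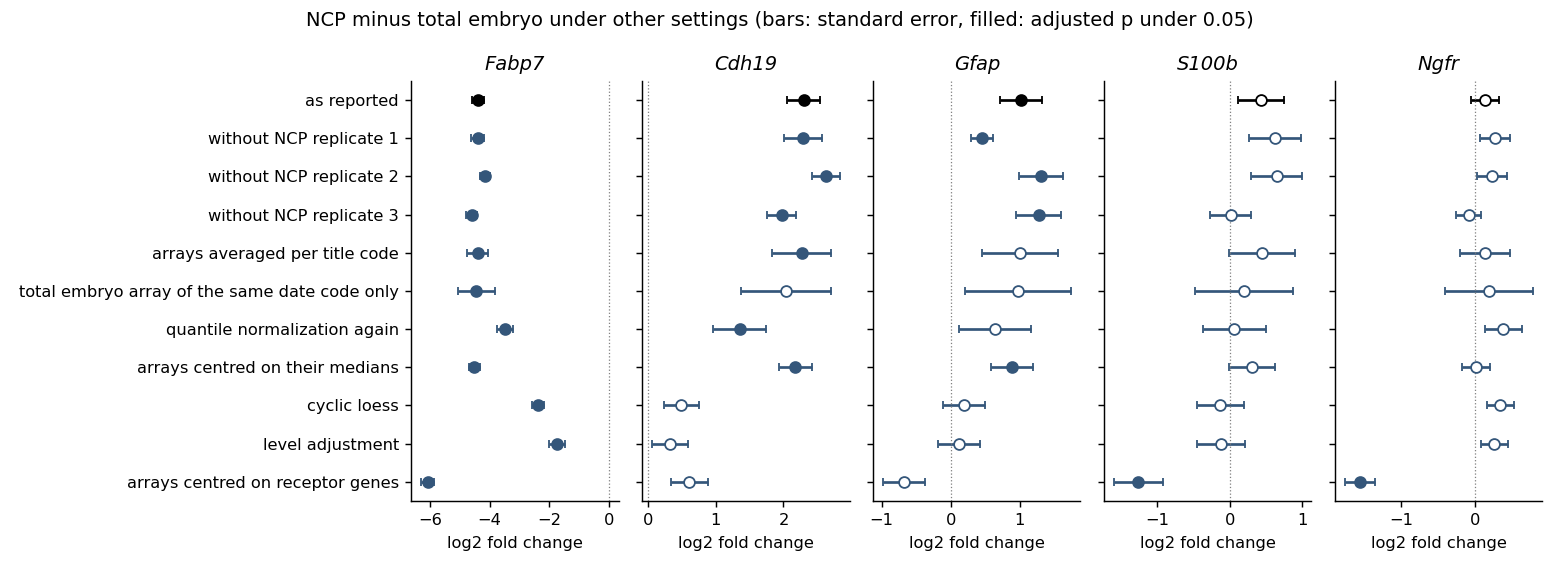
Log2 fold change (horizontal axis, NCP minus total embryo, bars are standard errors) of each gene as reported and under 10 other settings (vertical axis), filled where the adjusted p from limma is under 0.05. *Fabp7* stays below 0 and filled throughout, and *S100b* and *Ngfr* cross 0. *Cdh19* and *Gfap* lose their call under several settings, among them cyclic loess, level adjustment of all arrays and receptor centring. *Gfap* loses it also with arrays averaged per title code and after quantile normalization again.

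*Sox10*, whose regulatory sequence drove the reporter, was read as a check of the sort. Its level was 7.95, 7.14 and 7.60 on NCP arrays 1, 2 and 3, above a total embryo range of 6.38 to 6.65. It rose by 1.0 (standard error 0.18, adjusted p = 2.78e-04 from limma), against a median of −0.25 for genes of like level, which placed it at percentile 99.2. After level adjustment it was 1.22 (adjusted p = 4.73e-04 from limma). With arrays averaged per title code *Sox10* did not pass (1.01, adjusted p = 0.0584), nor against the single array of the NCP date code (1.03, adjusted p = 0.309). *Sox10* lay above its local median on each NCP array, by 1.57, 0.87 and 1.27. None of the 5 glial genes was higher than its local median on all 3 NCP arrays. With arrays centred on receptor genes, a setting that lowers all log2 fold changes alike (median over all probe sets −1.46), *Sox10* turned to −0.69. Every gene named below as higher on the deposited scale, other than *Fabp9*, also turned negative (values in the closing section, or beside the gene for neuron genes).

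The transcription factors of crest and Schwann lineage were split. Of 19 measured, 4 were higher and 8 lower (21.1% and 42.1%, beside 39.6% and 27.5% of all probe sets), with a median of −0.41 beside 0.23. On level-adjusted values 4 were higher and 1 lower (21.1% and 5.26%, beside 10.3% and 8.29%). The counts of this and the following lists are small and were not tested against these shares, and nothing is read from them about a list. *Sox10*, *Foxd3* and *Pou3f1* were higher both ways. *Foxd3*, a winged-helix factor of premigratory crest and glial precursors, had a log2 fold change of 1.33 (adjusted p = 3.37e-04) as deposited and 0.78 (adjusted p = 0.0392) after level adjustment, by limma. *Pou3f1*, a POU factor of promyelinating Schwann cells, had 0.71 (adjusted p = 0.00285) and 0.61 (adjusted p = 0.0305). *Pou3f1* lost its call averaged per title code (0.68, adjusted p = 0.113), against control arrays of the same title code series (0.49, adjusted p = 0.117) and with array weights (0.74, adjusted p = 0.0637). *Snai2*, a zinc-finger factor of migrating crest and mesenchyme, was lower both ways (−2.20, then −1.06, adjusted p = 0.00689). *Snai2* stood at percentile 45.9 of receptor genes in NCPs, where a decrease is limited by the floor.

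Among 19 measured genes of Schwann precursor surface and signalling, 3 were higher and 10 lower (15.8% and 52.6%, beside 39.6% and 27.5% of all probe sets), with a median of −0.54. On level-adjusted values 1 was higher and 1 lower (5.26% each, beside 10.3% and 8.29%). *Gfra3*, the artemin co-receptor, rose by 1.02 (adjusted p = 6.82e-04 from limma) and *Cadm4*, an adhesion molecule of the Schwann cell internode, by 0.91 (adjusted p = 0.00563), and neither passed after level adjustment (0.53 and 0.51). *Erbb3*, the neuregulin receptor on which Schwann cell precursors depend, was lower as deposited (−1.20, adjusted p = 2.54e-04 from limma) and after level adjustment (−0.95, adjusted p = 0.00740). It measured 5.40 ± 0.21 (SD, n = 3 arrays) on NCP arrays, at percentile 45.0 of receptor genes, where the floor limits a decrease as well, against 6.60 ± 0.32 (SD, n = 7 arrays) for total embryo. *Itga6*, a laminin receptor subunit, fell by 2.26, and had −0.56 after level adjustment (adjusted p = 0.0637). *Gap43*, a growth-cone protein of neurons that Schwann cell precursors also make, was lower as deposited (−1.71) and higher after level adjustment (0.62, adjusted p = 0.0194 from limma) and in sign after cyclic loess (0.36).

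Of 15 myelin genes measured, 4 were higher and 3 lower as deposited (26.7% and 20%, beside 39.6% and 27.5% of all probe sets), with a median of 0.16. After level adjustment 0 were higher and 0 lower (beside 10.3% and 8.29%), and at an unadjusted p of 0.05 in limma 1 and 0. Cyclic loess left 1 higher and 0 lower. *Mag* and *Gldn*, which encode an adhesion protein of the axon-glia contact and a protein of the node of Ranvier, each had a log2 fold change of 1.10, and 0.061 and 0.10 after level adjustment. *Pmp22*, a protein of compact myelin that many embryonic tissues also express, fell by 2.47, and *Gjb1*, the gap junction protein of Schwann cells and of liver, fell by 1.28. After level adjustment these were −0.31 and −0.30. All 15 lay below the 95th percentile of receptor genes in NCPs, and 4 did in total embryo.

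Of 14 genes of satellite, enteric and astroglia, 0 were higher and 7 lower by limma (median −0.79, 0 and 8 at an unadjusted p of 0.05), and 1 and 3 after level adjustment or cyclic loess. The shares as deposited were 0% and 50%, beside 39.6% and 27.5% of all probe sets. After level adjustment they were 7.14% and 21.4%, beside 10.3% and 8.29%. *Sparcl1*, a matrix protein of astrocytes and vessels, was lower both ways (−4.02, then −1.46, adjusted p = 9.57e-04), and so was *Apoe*, the lipid carrier of glia, macrophages and liver (−3.94, then −1.51, adjusted p = 0.0117 from limma). *Vim*, the intermediate filament of immature glia and mesenchyme, which was named after its values were seen, was lower as deposited (−0.97, adjusted p = 0.0142 from limma) and higher after level adjustment (1.55, adjusted p = 3.79e-05), and its sign was also positive after quantile normalization again (0.31) and cyclic loess (1.01).

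**Figure D5:**
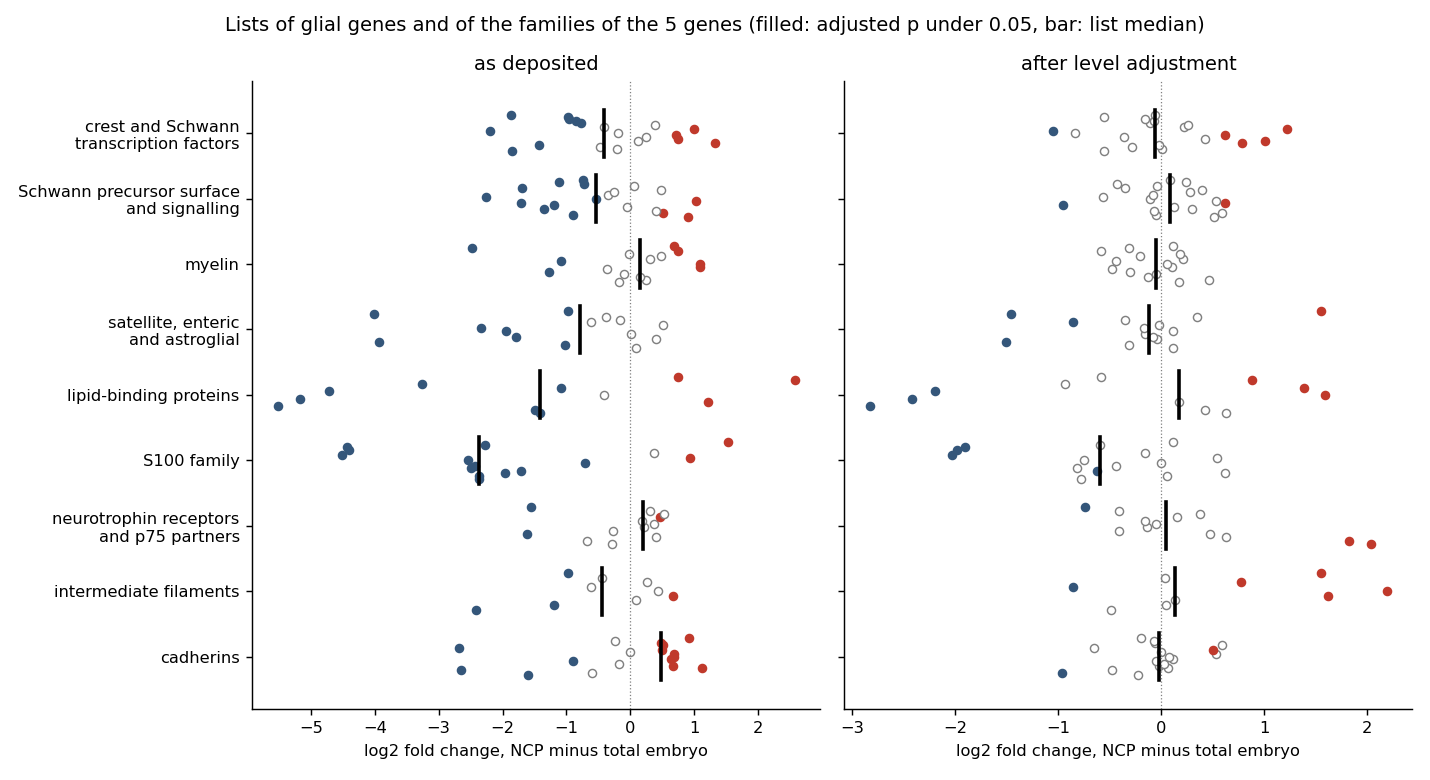
Log2 fold changes (horizontal axis, NCP minus total embryo) of the genes of 9 lists (vertical axis), as deposited and after level adjustment, each point 1 gene, filled where the adjusted p from limma is under 0.05, red higher and blue lower, with the list median as a black bar. The S100 family and the lipid-binding proteins have the lowest medians as deposited (−2.36 and −1.41), and after level adjustment the medians lie between −0.59 and 0.18.

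The families to which the 5 genes belong were read in the same way. Of 11 other intracellular lipid-binding proteins, 3 were higher and 7 lower (27.3% and 63.6%, beside 39.6% and 27.5% of all probe sets), with a median of −1.41. The level-adjusted calls were 3 and 3 (27.3% each, beside 10.3% and 8.29%). *Fabp1* and *Fabp2*, of liver and intestine, were lower in turn at −5.51 and −5.17, and at −2.83 and −2.42 after level adjustment. *Fabp9*, the testis form, was higher both ways (2.57, then 0.88, adjusted p = 0.0261 from limma), and *Fabp12*, a little-studied member, had 1.21 and then 0.18 (adjusted p = 0.668). *Fabp5* and *Fabp3*, the epidermal and heart forms, were named after their values were seen. Their levels in NCPs were 9.50 ± 0.47 and 8.39 ± 0.71 (SD, n = 3 arrays), at percentiles 100 and 99.9 of receptor genes. *Fabp5* was lower as deposited (−1.08) and higher after level adjustment (1.39, adjusted p = 0.00399), and *Fabp3* did not pass as deposited (−0.40) and was 1.59 after level adjustment (adjusted p = 4.46e-04, from limma).

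Of 15 members of the S100 family besides *S100b*, 12 were lower and 2 higher by limma, with a median of −2.36. These are 80% and 13.3%, beside 27.5% and 39.6% of all probe sets. The 12 measured 7.10 to 11.18 in total embryo, and bright genes fell in general. The level-adjusted calls were 4 lower and 0 higher (26.7% and 0%, beside 8.29% and 10.3%), with a median of −0.59. At an unadjusted p of 0.05 the adjusted values gave 8 lower and 0 higher, and cyclic loess with the adjusted threshold also 8 and 0. *S100a6* and *S100a9*, of fibroblasts and of neutrophils, were lower at −4.51 and −4.44, and at −2.03 and −1.90 after level adjustment (adjusted p = 7.49e-04 and 0.00296 from limma). *S100z*, at 4.19 in total embryo, had 1.54 and then 0.11. The log2 fold change of *S100b* (0.43) was thus above the family median on the deposited scale, and *S100b* was also dimmer in total embryo than all 12 that fell.

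Of 12 neurotrophin receptors and partners of p75, 1 was higher and 2 lower (8.33% and 16.7%, beside 39.6% and 27.5% of all probe sets), with a median of 0.20. The level-adjusted calls were 2 and 1 (16.7% and 8.33%, beside 10.3% and 8.29%). *Sort1*, which encodes sortilin, the co-receptor with which p75 binds proneurotrophins, was lower both ways (−1.56, then −0.74, adjusted p = 0.0227 from limma). *Bex1* and *Bex3*, small proteins that bind the intracellular part of p75 and are abundant in neurons, were named after their values were seen. They did not pass as deposited (−0.29 and −0.67) and were higher after level adjustment (2.04 and 1.83, adjusted p = 2.02e-04 and 2.40e-04 from limma).

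Of 9 further intermediate filaments of types III and IV, 1 was higher and 3 lower (11.1% and 33.3%, beside 39.6% and 27.5% of all probe sets), with a median of −0.45. The level-adjusted calls were 4 and 1 (44.4% and 11.1%, beside 10.3% and 8.29% of all probe sets). *Nefl*, a neurofilament of neurons, had 0.67 and then 1.62 (adjusted p = 6.08e-04 from limma), and *Nefm*, its partner, named after its values were seen, 0.43 and then 2.19 (adjusted p = 9.45e-04). *Nefl* lost its call on the deposited scale without NCP replicate 3 (0.40, adjusted p = 0.122), averaged per title code (0.68, adjusted p = 0.205) and with that code as a block (0.67, adjusted p = 0.152). *Nefm* reached this level with an NCP spread of 1.18 (SD, n = 3 arrays), and its deposited log2 fold change turned to −0.15 without NCP replicate 3. *Ina*, of the same list, was lower at −1.20 (adjusted p = 6.46e-04 from limma) and had 0.050 after level adjustment. *Nefh* did not pass either way (0.090, then 0.13). *Des*, the filament of muscle, fell by 2.41, and had −0.49 after level adjustment (adjusted p = 0.260). Among 17 other cadherins, 9 were higher and 4 lower (52.9% and 23.5%, beside 39.6% and 27.5% of all probe sets), with a median of 0.49. The level-adjusted calls among them were 1 and 1 (5.88% each, beside 10.3% and 8.29%). *Cdh12* and *Cdh9*, type II cadherins of the brain, were 1.13 and 0.91 as deposited and 0.063 and −0.19 after level adjustment. Without NCP replicate 1 *Cdh12* was 0.61 and did not pass (adjusted p = 0.0587). *Cdh5*, of endothelium, and *Cdh11*, of mesenchyme, were lower at −2.68 and −2.65, and had −0.65 and −0.47 after level adjustment, short of the threshold.

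Markers of other cell types moved between the groups too. All 12 genes of smooth muscle and mesenchyme were lower in NCPs (median −2.34, and 6 lower after level adjustment), as were 6 of 9 epithelial, 6 of 8 endothelial, 6 of 8 leukocyte and all 8 housekeeping genes (medians −1.77, −1.16, −1.22 and −2.14). These are 100%, 66.7%, 75%, 75% and 100% in turn, beside 27.5% of all probe sets. As the housekeeping genes fell too, no loss of a cell type is read from these counts. After level adjustment 4 epithelial, 0 endothelial, 1 leukocyte and 2 housekeeping genes were lower, and for the endothelial genes 3 at an unadjusted p of 0.05 in limma and 3 after cyclic loess. The level-adjusted shares lower were 50% for smooth muscle and mesenchyme and 44.4%, 0%, 12.5% and 25% for these 4 lists, beside 8.29% of all probe sets. Of 8 melanocyte genes, 2 were higher and 3 lower (25% and 37.5%, beside 39.6% and 27.5% of all probe sets), and of 5 erythroid genes 2 and 2 (40% each). Of 11 neuron genes, 3 were higher and 6 lower (27.3% and 54.5%, beside 39.6% and 27.5% of all probe sets), with a median of −1.08. The level-adjusted calls were 1 and 0 (9.09% and 0%, beside 10.3% and 8.29%). The largest decreases among the 6 were those of *Tubb3* (−3.72, then −1.14) and *Map2* (−1.62, then −0.070), neither past the threshold after level adjustment. *Tubb3* had an NCP SD of 2.44, and −2.38 without NCP replicate 2. The 3 higher were *Elavl3* (0.51, then 0.31), *Elavl4* (0.57, then 0.17) and *Th* (0.58, then −0.094), none past the threshold after level adjustment. With arrays centred on receptor genes these 3 turned to −1.18, −1.12 and −1.11 in turn. *Prph* was the 1 called after level adjustment (0.26, then 0.77, adjusted p = 0.0384 from limma). Central radial glia and neural tube genes were higher in 6 of 11 and lower in 1 (54.5% and 9.09%, beside 39.6% and 27.5% of all probe sets), with a median of 0.56, and 4 and 0 after level adjustment (36.4% and 0%, beside 10.3% and 8.29%). They include *Nr2e1* (1.65, then 0.77), *Sox1* (1.01, then 1.10) and *Hes5*, named after its values were seen (1.01, then 1.65), all past the threshold in both fits by limma. Averaged per title code *Sox1* (adjusted p = 0.110) and *Hes5* (adjusted p = 0.0917) did not pass, nor did they against control arrays of the same title code series (adjusted p = 0.0649 and 0.0537). *Lhx2* was the 1 called lower (−0.47, adjusted p = 0.0229 from limma), with −0.039 after level adjustment. The 4 that did not pass as deposited were *Pax6* (0.17), *Otx2* (0.23), *Olig2* (0.22) and *Sox3* (0.42). Of these, *Sox3* passed after level adjustment (1.12, adjusted p = 0.0171 from limma) and the others did not. The part of these cell types in the values of the 5 genes was not tested.

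For each of the 5 genes the 3 genes most like it were found by the smallest root mean square difference over the 10 arrays, with values centred on the total embryo mean of each gene, among 19936 others. For *Fabp7* they were *Tpm2* (0.173), *Neb* (0.223) and *Fgb* (0.242), and for *Cdh19* *Olfr895* (0.186), *Skint10* (0.187) and *Olfr911-ps1* (0.197). For *Ngfr* they were *Sh2d6* (0.0982), *B4galt5* (0.105) and *Dlgap3* (0.118), for *S100b* *Zeb2os* (0.234), *Defa24* (0.287) and *Cyp11b1* (0.288), and for *Gfap* *Zscan12* (0.140), *Usf1* (0.144) and *Olfr485* (0.153). None of these 15 belongs to the 5 genes or to *Sox10*. Under other settings between 0 and 3 of the 3 were found again for each gene, and leaving out a single array was enough to lose all 3 for *Ngfr*, *S100b*, *Gfap* and *Cdh19*.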

How the data were processed

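Values were deposited by the authors on a log2 scale. Per the labels the tool was Affymetrix Expression Console 1.1 with RMA (robust Multi-Array Average), and which arrays were normalized together is not given in the sources used here. The labels name a one-cycle labelling kit and the methods a WT-PICO amplification. Groups come from the labels, and replicate numbers are tags in accession order.

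The file lists 34760 probe sets. Leaving out 6568 controls, 28192 were tested with limma 3.58.1 in R 4.3.3 (lmFit and eBayes, prior of 4.65 degrees of freedom), with Benjamini-Hochberg adjustment over all of them and a threshold of 0.05. Of these, 21640 carry 1 symbol, 1321 several and 5231 none, by the platform annotation, and 21553 symbols matched RefSeq. A gene's probe set is the one of highest mean over 10 arrays. Level adjustment fits a lowess curve (span 0.3) to the difference of each array from the total embryo mean, over that mean, and subtracts it. Local medians used 500 genes, equally many on each side of the gene.

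The 5 genes and 18 further lists (217 genes, 204 measured) were chosen with earlier results of these data known. Genes named were *Sox10*, up to 2 largest increases and decreases among called genes of a list, called genes of the Schwann and glial lists with 1 direction in both fits, and the 3 most alike genes. Of these, a selection is given with values. Scripts were tested on simulated data, and figures drawn with matplotlib 3.10.9.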

Additional observations from a re-analysis of the deposited data

Results flagged for a closer look

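In total embryo the lowest *Gfap* value, on replicate 6 (4.75, beside 5.00 to 5.14 on the other 6 arrays), lay apart from the rest, its gap to the next array being 0.634 of the whole range, where 0.568 is the 95% critical value of Dixon's test for 7 arrays. The lowest *Sox10* value of total embryo, on replicate 2 (6.38), lay apart in the same way, with a gap of 0.576 of the range. These were 2 of 12 tails examined over the 5 genes and *Sox10*. Such a test flags a share of groups by chance, and neither array was left out of the values reported.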

How the results depend on the processing

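Of 5 genes, *Fabp7* kept its direction and its call under all settings tried, between −6.08 and −1.74. Leaving out each array gave ranges of −4.60 to −4.16 for *Fabp7*, 1.97 to 2.63 for *Cdh19*, 0.46 to 1.31 for *Gfap*, 0.013 to 0.65 for *S100b* and −0.089 to 0.26 for *Ngfr*. *Cdh19* lost its call against the total embryo array of the same date code (2.03), after cyclic loess (0.49), level adjustment (0.32) and receptor centring (0.61), and the filter on dim probe sets removed it. It passed after level adjustment (0.73) and cyclic loess (0.92) without NCP replicate 2, a setting chosen after seeing the data that leaves out its lowest NCP value. *Gfap* lost its call with control arrays of the same title code series (0.96), of the same date code (0.98), averaged per title code or with that code as a block (1.01 for both), after quantile normalization again (0.64), cyclic loess (0.19), level adjustment (0.13), and for the latter pair without NCP replicate 2, a setting chosen after seeing the data (0.55 and 0.46). With fewer control arrays the fit rests on fewer samples, and for the other settings the cause was not tested.

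The number of the 5 genes called higher fell to 1 with the same title code series, the averages, the block, quantile normalization, the dim filter, and level adjustment or cyclic loess without NCP replicate 2, and to 0 with the same date code, cyclic loess, level adjustment and receptor centring, which called 3 lower. Over all probe sets, the counts higher and lower were 364 and 691 with the same date code, 5761 and 4183 averaged, 4777 and 4506 after cyclic loess, 2903 and 2336 after level adjustment, and 1348 and 21951 after receptor centring. Without NCP replicate 2 they were 3856 and 3459 after level adjustment and 5138 and 4826 after cyclic loess. Quantile normalization gave 6370 higher. These counts are out of 28192 probe sets tested, so the 3 of the 5 genes called lower after receptor centring stand beside 21951 of 28192. Counts over all probe sets are not given here for the same title code series, the block and the dim filter. Nothing is read about the 5 genes from how many were called under a setting. The overall median change (0.23) was 0.080 after quantile normalization, −0.0089 after cyclic loess, 0.11 with arrays centred on medians, −1.46 with receptor centring and −0.013 after level adjustment.

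Receptor centring turned *Ngfr* (−1.56), *S100b* (−1.26), *Gfap* (−0.67), *Sox10* (−0.69), *Foxd3* (−0.36), *Pou3f1* (−0.98), *Gfra3* (−0.67), *Cadm4* (−0.78), *Gldn* (−0.59), *Mag* (−0.59), *Fabp12* (−0.48), *S100z* (−0.15), *Nefl* (−1.02), *Nefm* (−1.26), *Cdh12* (−0.56), *Cdh9* (−0.78), *Sox1* (−0.68), *Nr2e1* (−0.042) and *Hes5* (−0.68). Quantile normalization turned *Bex1* (1.06), *Bex3* (0.58), *Fabp3* (0.97), *Fabp5* (0.28) and *Vim* (0.31). Cyclic loess turned *S100b* (−0.13), *Bex1* (1.75), *Bex3* (1.31), *Cdh9* (−0.20), *Fabp3* (1.66), *Fabp5* (0.92), *Gap43* (0.36) and *Vim* (1.01). Level adjustment turned *S100b* (−0.12), *Bex1* (2.04), *Bex3* (1.83), *Cdh9* (−0.19), *Fabp3* (1.59), *Fabp5* (1.39), *Gap43* (0.62) and *Vim* (1.55). Without NCP replicate 2, cyclic loess turned *Bex1* (2.0), *Bex3* (1.45), *Cdh9* (−0.45), *Fabp12* (−0.15), *Fabp3* (1.63), *Fabp5* (0.71), *Gap43* (0.39) and *Vim* (1.13), and level adjustment *Bex1* (2.34), *Bex3* (1.88), *Cdh9* (−0.42), *Fabp12* (−0.15), *Fabp3* (1.64), *Fabp5* (1.09), *Gap43* (0.66), *Mag* (−0.016) and *Vim* (1.56). Leaving out single arrays gave −0.71 to 0.32 for *Bex1* and −0.15 to 1.03 for *Nefm* (called without NCP replicate 2). Without NCP replicate 1, *Cdh12* (0.61) lost its call, *Bex3* gained one (−1.12), and *Cadm4* (0.49) and *Sox1* (0.63) moved by over 1.5 times. Without replicate 2, *Vim* moved to −0.40. Without replicate 3, *Nefl* (0.40) lost its call, *Fabp3* gained one (−0.81) and *Gldn* moved to 0.67. Averaged per title code, *Sox10*, *Pou3f1*, *Gfra3*, *Cadm4*, *Gldn*, *Fabp12*, *Fabp5*, *Vim*, *Nefl*, *Cdh12*, *Cdh9*, *Sox1* and *Hes5* also lost their calls.

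No paired analysis was possible because replicate numbers follow accession order and pair nothing. Signal over background limited *Cdh19* on all 10 arrays, *Gfap* on 9, *S100b* on 5, *Ngfr* on 2 and *Fabp7* on 1, where they lay under the 95th percentile of receptor genes.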
